A study of Mus musculus with 12 samples.

Results

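This report compares mRNA bound to tagged ribosomes with the whole-tissue RNA it was purified from, in the ventral hippocampus (vHPC) of wild type (WT) mice. The comparison used 6 of the 12 libraries of the study, the translating ribosome affinity purification (TRAP) libraries of WT pools 1, 2 and 3 and the input libraries of the same 3 pools. Of 37310 genes in the deposited counts, 20728 had a read in at least 1 of these libraries, and the 12426 that passed a filter on low counts were tested. The labels give the strain of all mice as C57BL/6, and the sex of these pools was not given in the sources used here. All carried a Cre-dependent gene for eGFP fused to the ribosomal protein L10a at the Rosa26 locus, and all received HSV-Cre in nucleus accumbens (NAc). This vector is taken up by axon terminals, so that the tagged ribosome is switched on in cells that project to NAc. Tissue was punched from vHPC 3 weeks later. WT mice carried no floxed FosB allele, whereas the FosB knockout (KO) mice, used here only for a comparison, were FosB fl/fl, an allele from which Cre removes exons 2 and 3 and not the whole gene. Each pool held 3 mice by the labels and 3 to 4 by the methods. A library whose label lacks the word input was read as TRAP. Ages of these pools were not given in the sources used here. The labels call the tissue hippocampus neurons, although the input is RNA of the whole punch.

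TRAP relies on the fact that an mRNA under translation carries ribosomes, so that an antibody against the tag pulls down the mRNA of tagged cells together with the ribosome. RNA that stays in the nucleus, RNA made inside mitochondria and RNA of cells without the tag should be lost to the extent that the wash removes it. Projection neurons of the hippocampus are glutamatergic pyramidal cells, surrounded in the tissue by GABA interneurons, astrocytes, oligodendrocytes, microglia and vessels. In bulk libraries like these, fewer cells of a type and less RNA per cell cannot be told apart.

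Reads counted on genes numbered 3416030 to 5614089 per library, so that 3 counts stood at 0.536 to 0.870 CPM, the count scaled to a library of 1000000 counts. These limits cover counting error only, because amplified reads are not independent molecules. Correlations of log CPM between libraries were 0.958 to 0.964 within TRAP, 0.949 to 0.977 within input and 0.881 to 0.910 between them. Input of pool 1 stood apart from the other inputs, with counts on 15678 genes against 18090 and 17829. It was also the library with the fewest counts, 3416030, and fewer reads find fewer genes. Fosb stood at 31.5 to 45.2 CPM in WT TRAP, at 22.0 to 30.4 in WT input, at 18.8 to 30.3 in KO TRAP and at 14.8 to 16.9 in KO input, before scaling. Counts over the whole gene thus remained in the libraries labelled KO, and they do not tell how many alleles had lost the exons. No source says whether reads were counted by strand, so a gene and an antisense partner may share reads.

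In WT, 3303 of 12426 genes (26.6%) passed an adjusted p of 0.05 in the quasi-likelihood test of edgeR (Benjamini-Hochberg), fitted with the pool as a block. These p-values reflect the spread among 3 pools. Higher in TRAP were 1605 genes (12.9%) and lower were 1698 (13.7%), the shares against which the counts of each gene list stand. The sizes were not symmetrical. Of the genes called, 110 (0.885% of those tested) were at least 2-fold higher in TRAP, and 1036 (8.34%) were at least 2-fold lower. At least 4-fold higher were 19 genes, and at least 4-fold lower were 571. In 4997 genes (40.2%) the 3 TRAP libraries lay wholly above or wholly below the 3 inputs. Before adjustment, 4641 genes (37.3%) had a p under 0.05. The count rested most on pool 3. Without it, 1165 genes were called, of which 1153 were among the 3303, and without pool 1, whose input stood apart, 3622 were called.

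The 8 genes with the highest ratios, among those called, not overlapping and with a mean of at least 10 CPM, were Atg7, Tnrc18, Bahcc1, Gse1, Bcor, Kalrn, Mn1 and Ubr3. Atg7 (chr6:114593149-114810431 of mm9), which encodes an enzyme of autophagosome formation, stood at 210.5, 373 and 195 CPM in TRAP of pools 1, 2 and 3, and at 24.1, 27.3 and 21.9 CPM in their inputs. Its ratio was 10.3-fold, a log2 ratio of 3.37 (standard error 0.15, adjusted p = 7.05e-12 from edgeR). The inputs were close together, while TRAP of pool 2 was the highest of its group. Of 97 stretches of 75 bases from Atg7 exons, 39 (40.2%) have another place in the mouse genome within 2 mismatches, so that part of its reads may have been set aside or may belong elsewhere.

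Tnrc18 and Bahcc1 are paralogs with a BAH domain, a module that binds chromatin. Tnrc18 (chr5:143512088-143579341) stood at 1113, 1774 and 753 CPM in TRAP and at 128, 121 and 134 CPM in input, with a log2 ratio of 3.16 (standard error 0.34, adjusted p = 0.0101 from edgeR). Bahcc1 (chr11:120094261-120153610) stood at 430.2, 449 and 232 CPM in TRAP and at 45.2, 46.0 and 39.1 CPM in input, with a log2 ratio of 3.04 (standard error 0.14, adjusted p = 9.94e-12 from edgeR). In both genes TRAP of pool 3 was the lowest of the TRAP libraries and still more than 5 times its input. Shared stretches made up 2.16% of the Tnrc18 stretches and 9.04% of those of Bahcc1.

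Kalrn (chr16:33974344-34573618), which encodes kalirin, an exchange factor for small GTPases in dendritic spines, was among the most abundant of all genes in TRAP. It stood at 3270.2, 6963 and 3321 CPM in TRAP and at 728, 703 and 705 CPM in input. The inputs differed by a few percent, whereas TRAP of pool 2 was about 2 times that of the other pools. The log2 ratio was 2.57 (standard error 0.32, adjusted p = 0.0159 from edgeR). No Kalrn stretch was shared. Gse1 and Bcor encode parts of corepressor complexes, and their log2 ratios were 2.87 and 2.82. Gse1 overlaps Gins2 and Gm20388, with which it may share reads. Mn1, a transcriptional coregulator, and Ubr3, a ubiquitin ligase, had log2 ratios of 2.15 and 2.08. The calls of Tnrc18, Kalrn and Gse1 were lost without pool 1, at log2 ratios of 3.18, 2.78 and 2.79 and adjusted p-values of 0.196, 0.0578 and 0.159 from edgeR.

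**Figure D1:**
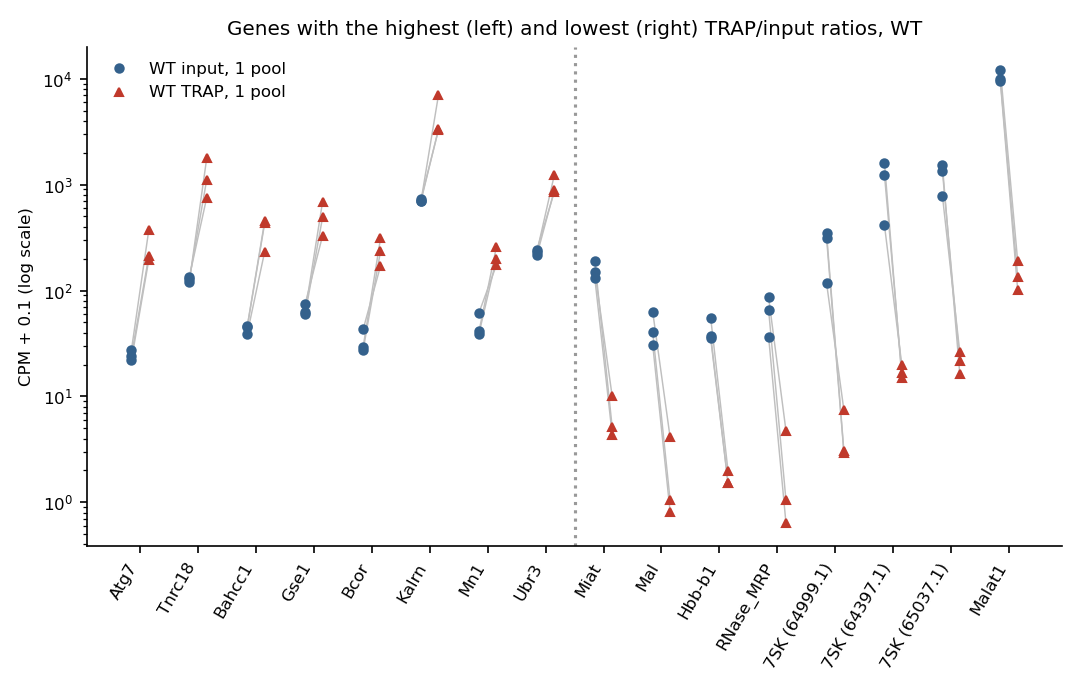
Levels of the 8 named genes with the highest and the 8 with the lowest log2 ratios of TRAP to input in WT, as CPM plus 0.1 on a log axis. Each circle is the input of 1 pool and each triangle the TRAP library of the same pool, joined by a grey line. The 16 genes were chosen among those whose groups do not overlap. Kalrn rose from 703 to 728 CPM in input to between 3270.2 and 6963 CPM in TRAP, and Malat1 fell from between 9533 and 12166 to between 101 and 189 CPM. The copies of 7SK are told apart by the end of their identifiers.

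Over all 110 genes called at least 2-fold higher, the median exon length was 2380.5 bases, against 3837 bases over all genes tested, and the median GC content of the coding transcript was 55.2% against 50.7%. The 8 highest named genes were long, with a median of 7258 bases. Of the 110, 18 had a mean of at least 100 CPM.

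Of the 1036 genes called at least 2-fold lower, 960 were protein coding, with a median exon length of 4562 bases and a median of 9.91 CPM. Among the 8 with the lowest ratios by the same rule as above, which leaves out gene models and mitochondrial genes, 2 were protein coding. Malat1 (chr19:5795690-5802671), a noncoding RNA of nuclear speckles, stood at 101, 133 and 189 CPM in TRAP and at 9533, 9866 and 12166 CPM in input. Its TRAP level was 1.31% of input, a log2 ratio of -6.26 (standard error 0.12, adjusted p = 1.46e-17 from edgeR). The 3 genes annotated as 7SK among them, the RNA that holds the elongation factor P-TEFb inactive in the nucleus, had TRAP levels of 1.85% to 2.01% of input. Of their exon stretches, 0% to 63.6% have another place in the genome, and the input of pool 1 was the lowest input for each. Kept without a filter on low counts, 2 of the 3 were not called (adjusted p = 0.088 and 0.108 from edgeR). RNase_MRP, the RNA of a nuclear processing enzyme, stood at 3.24% of input and Miat, a noncoding RNA of neuronal nuclei, at 3.99%. Of 10 nuclear noncoding RNAs tested, 7 were lower and none was higher in TRAP, with a median log2 ratio of -2.52, beside 0.01 over all genes tested. Meg3, an imprinted noncoding RNA, stood at 55.9, 77.0 and 72.0 CPM in TRAP and at 2135, 1375 and 1411 CPM in input. Neat1, the scaffold of paraspeckles, had 7 reads in all of TRAP and 185 in input. The host genes of small nucleolar RNAs Snhg1 and Snhg12 were not called, with log2 ratios of 0.18 and -0.19.

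The mitochondrial genome was the other block of RNA that was low in TRAP. Its genes together took 0.0305% to 0.0735% of the counts in TRAP and 5.29% to 8.20% in input. All 19 of its genes tested were lower in TRAP, with a median log2 ratio of -6.23. With the 3 tested genes without a TRAP read set at 3 counts over the 3 libraries, the median was -6.07. The summed level in TRAP was 0.583%, 0.793% and 1.12% of input in pools 1, 2 and 3. Protein-coding genes took 96.2% to 97.2% of the counts in TRAP and 86.2% to 89.2% in input. Without the mitochondrial genes in the fit, 3256 genes were called.

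The largest gene in each TRAP library was annotated as mmu-mir-689-2, with 1.15% to 1.83% of the counts. It is named here after its values were seen. It stood at 18111, 18612 and 11403 CPM in TRAP and 12963, 13856 and 19360 CPM in input, and was not called (log2 ratio 0.05, standard error 0.37). The libraries overlapped, and the deposited counts do not tell which RNA these reads come from.

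Markers of neurons were modestly higher in TRAP. All 24 general neuron markers passed the filter, 17 were higher (70.8%, against 12.9% of all genes) and 1 was lower, and their median log2 ratio was 0.55. Genes used by all cells gave the same counts, with a median of 0.43. Abundant genes were often called, since in the 10% of genes with the highest mean CPM 47.9% were higher in TRAP, and the neuron markers had a median of 704 CPM. Summed over the list, TRAP stood at 128%, 137% and 130% of input in the 3 pools. Snap25, which encodes a SNARE protein of synaptic vesicle fusion, stood at 5242, 5363 and 5442 CPM in TRAP and at 3525, 3443 and 3285 CPM in input (log2 ratio 0.65, standard error 0.08, adjusted p = 9.28e-06 from edgeR). Rbfox3, which encodes the nuclear antigen NeuN, had a log2 ratio of 0.59. Uchl1, which encodes an abundant neuronal deubiquitinase, was the highest of the list at 1.06. Syt1, the calcium sensor of vesicle release, was not called (log2 ratio -0.12, standard error 0.09), although its TRAP libraries lay below the inputs.

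Kif5a, which encodes a kinesin motor of axonal transport, went the other way. It stood at 981, 969.7 and 984 CPM in TRAP and at 2167, 1961 and 2649 CPM in input, a log2 ratio of -1.20 (standard error 0.09, adjusted p = 2.02e-08 from edgeR). The TRAP values lay close together, and each was less than 0.5 times its input.

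Of 16 markers of glutamatergic neurons, all tested, 7 were higher and none was lower, and the median log2 ratio was 0.35. Baiap2, which encodes a postsynaptic scaffold that binds Rac, stood at 617, 587 and 543 CPM in TRAP and at 291, 289 and 305 CPM in input (log2 ratio 0.98). Neurod6, a transcription factor of pyramidal cells, had a log2 ratio of 0.75. Camk2a, the kinase most used to mark excitatory forebrain neurons, was higher by only 0.29 (standard error 0.08, adjusted p = 0.0113 from edgeR). That call was lost without pool 3 (log2 ratio 0.30, adjusted p = 0.177 from edgeR). Slc17a7, the vesicular glutamate transporter VGLUT1, stood at 689.6, 622 and 605 CPM in TRAP and at 615, 503 and 557 CPM in input and was not called (log2 ratio 0.20, adjusted p = 0.122 from edgeR). Without pool 3, 4 of the glutamatergic markers were higher.

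Markers of GABA interneurons were low in TRAP. Of 23, 22 were tested, 16 were lower and 1 was higher, with a median log2 ratio of -1.92. The enzymes that make GABA, Gad1 and Gad2, stood together. Gad1 was at 89.3, 64.8 and 51.2 CPM in TRAP and at 247, 266 and 252 CPM in input (log2 ratio -1.92, standard error 0.14, adjusted p = 1.17e-08 from edgeR), and Gad2 was lower by -1.96. Slc32a1, the vesicular GABA transporter, had a log2 ratio of -2.01. TRAP of these 3 genes was thus 24.8% to 26.4% of input. Lower still were Erbb4, a neuregulin receptor of interneurons, at 8.23% of input, and Vip, a peptide of interneurons that inhibit other interneurons, with 2 reads in TRAP and 87 in input.

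Some genes of the list did not follow. Nos1, the neuronal nitric oxide synthase, stood at 659.6, 903 and 573 CPM in TRAP and at 407, 325 and 334 CPM in input, a log2 ratio of 0.98 (standard error 0.13, adjusted p = 4.85e-05 from edgeR). All 3 TRAP libraries were above all inputs. With 659.6 of 1332 CPM of the list in TRAP of pool 1, Nos1 was its most abundant member there. The summed level of the list was 77.3%, 88.6% and 71.6% of input. Npy, a peptide of other interneurons, was not called (log2 ratio -0.24, standard error 0.20), and neither was Calb2, the calcium buffer calretinin (0.39, standard error 0.16).

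Glial markers were lower with few exceptions. Of 22 astrocyte markers, 20 were tested and 19 were lower, with a median log2 ratio of -2.65. Kept without a filter on low counts, 20 of 22 were called lower. Summed over all 22, TRAP stood at 22.2%, 17.7% and 21.0% of input. Gfap, the intermediate filament of astrocytes, was at 16.6, 15.1 and 8.27 CPM in TRAP and at 138, 119 and 139 CPM in input (log2 ratio -3.31, standard error 0.20, adjusted p = 7.14e-10 from edgeR). Slc1a3, a glutamate transporter, stood at 10.3% of input, and Aqp4, a water channel of astrocyte endfeet, at 7.99%. The highest of the list were Atp1b2, a sodium pump subunit, at a log2 ratio of -0.42, whose call was lost without the block (adjusted p = 0.0595) and without pool 3 (0.131), and the transcription factor Gli3, which was not called at -0.44.

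Of 22 oligodendrocyte markers, 20 were tested and all 20 were lower, with a median log2 ratio of -3.49. Kept without a filter on low counts, 20 of 22 were called lower. Mal, a myelin protein, was at 0.714, 0.942 and 4.00 CPM in TRAP and at 30.4, 40.0 and 62.3 CPM in input, or 3.91% of input. Mbp, whose mRNA travels into oligodendrocyte processes, was less depleted, at 48.6% of input (log2 ratio -1.04, standard error 0.13). The members thus ran from -4.73 to -1.04.

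All 18 microglia markers tested, of 20, were lower in TRAP, with a median log2 ratio of -4.03, the lowest of the cell types apart from the 3 fibroblast genes tested. A gene could pass the filter through the input libraries alone, which favors genes low in TRAP among sparse members tested. Kept without a filter on low counts, 18 of 20 were called lower. Summed over the list, TRAP was 11.1%, 7.86% and 7.25% of input. Cx3cr1, the fractalkine receptor, was at 2.68, 1.41 and 0.800 CPM in TRAP and at 17.7, 13.7 and 17.9 CPM in input. P2ry12, a purine receptor, had 3 reads in TRAP and 89 in input, and Gpr34 had none in TRAP and 47 in input. The TRAP levels of P2ry12 and Gpr34, and that of Cx3cr1 in pool 3, are near the limit that 3 counts set in a library.

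Oligodendrocyte precursors gave a split result. Of 10 markers, 8 were tested, 5 were lower and 1 was higher. Pdgfra, the receptor that defines these cells, was at 2.14, 2.36 and 1.87 CPM in TRAP and at 31.3, 24.1 and 18.8 CPM in input (log2 ratio -3.53, standard error 0.36, adjusted p = 8.94e-07 from edgeR). Cspg4, which encodes the proteoglycan NG2 of the same cells and of pericytes, was at 34.3, 21.4 and 16.3 CPM in TRAP and at 9.86, 6.60 and 6.19 CPM in input. Its log2 ratio was 1.64 (standard error 0.29, adjusted p = 0.000338 from edgeR), and its groups did not overlap. In KO its log2 ratio was 0.21, and the difference between WT and KO was not called.

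Vessel, choroid plexus and fibroblast markers were sparse in both kinds of library. Of 21 endothelial and mural markers, 10 were tested and 5 were lower, which became 3 without pool 2 and 2 without pool 3. Kept without a filter on low counts, 5 of 21 were called lower. Flt1, a VEGF receptor, had 3 reads in TRAP and 61 in input, and the tight junction gene Cldn5 had 0 reads in TRAP and at most 4 in an input library. Ttr, the transthyretin of choroid plexus, varied widely between pools, with 3.77, 13.2 and 65.2 CPM in input and 0, 1.65 and 5.07 CPM in TRAP. Of the fibroblast genes, Igf2 stood at 5.40% of input, while the defining markers Col1a1 and Lum fell under the filter and were not low in TRAP. Col1a1 had 11, 3 and 7 reads in TRAP and 7, 8 and 7 in input, and Lum had 6, 5 and 5 in TRAP and 0, 4 and 1 in input. Hbb-b1, a globin of red blood cells, stood at 1.43, 1.41 and 1.87 CPM in TRAP and at 37.1, 35.3 and 55.2 CPM in input.

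**Figure D2:**
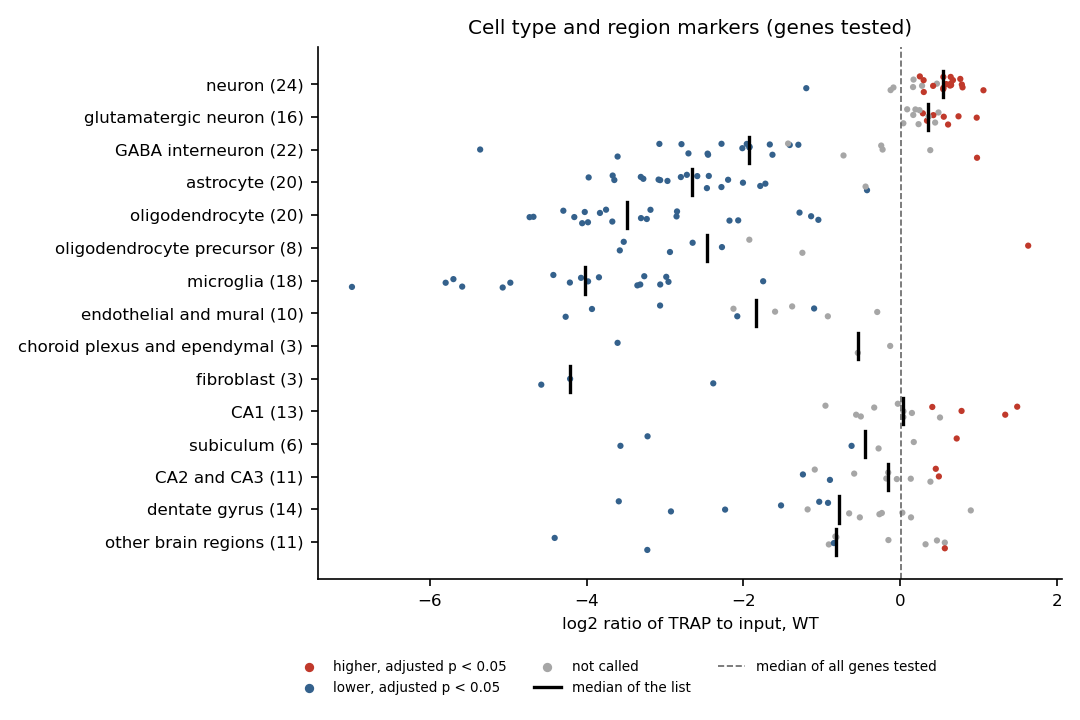
Log2 ratios of TRAP to input in WT for markers of 15 cell types and regions, with the number of genes tested in brackets. Each point is a gene, coloured by its call, black bars are medians of the lists and the dashed line is the median of all genes tested, 0.01. The medians of neuron and glutamatergic markers lie to the right of it, at 0.55 and 0.35, and those of GABA, astrocyte, oligodendrocyte and microglia markers lie to the left, at -1.92, -2.65, -3.49 and -4.03.

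Regional markers divided less clearly. Of 14 genes of field CA1, 13 were tested, 4 were higher and none was lower, with a median log2 ratio of 0.04, close to that of all genes. Fibcd1, an endocytic receptor used as a CA1 marker, was at 164, 215 and 133 CPM in TRAP and at 52.8, 64.4 and 61.4 CPM in input (2.82-fold, adjusted p = 5.04e-07 from edgeR). Gpc3, a glypican, had a log2 ratio of 1.34 (adjusted p = 0.0198 from edgeR), which lost its call without pool 2 (adjusted p = 0.185) and without pool 3 (0.0692). Without pool 3, 2 CA1 genes were higher, and without pool 2, 2 were higher and 1 was lower. Wfs1, a common marker of CA1 pyramidal cells, was not called. It was at 81.4, 58.9 and 56.3 CPM in TRAP and at 61.5, 59.8 and 67.4 CPM in input (log2 ratio 0.04, standard error 0.17). Pou3f1, another defining gene, had no read in any of the 6 libraries, which allows up to 0.536 to 0.870 CPM.

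Of 9 subiculum markers, 6 were tested, 1 was higher and 3 were lower. Nov, which encodes a secreted matrix protein, had a log2 ratio of 0.72 and was higher in all 3 pools, at 256, 216 and 188 CPM in TRAP and 173, 129.9 and 102 CPM in input. Fn1, fibronectin, which other cells of the tissue also make, was at 0.179, 2.59 and 1.87 CPM in TRAP and at 19.7, 22.5 and 9.28 CPM in input. The glutamate transporter Slc17a6 was not called, at a log2 ratio of -0.27. The defining marker Nts, neurotensin, had 3 to 8 reads in a TRAP library and 4 to 10 in an input, and was under the filter.

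Of 16 dentate gyrus markers, 14 were tested, none was higher and 6 were lower, with a median log2 ratio of -0.78. Prox1, the transcription factor that specifies granule cells and is also present in some interneurons, was at 4.64, 7.30 and 2.67 CPM in TRAP and at 28.7, 51.9 and 30.3 CPM in input (log2 ratio -2.92, standard error 0.28, adjusted p = 3.93e-07 from edgeR). C1ql2, of mossy fibers, and Dsp, desmoplakin, also define the region but were not called, at -1.18 and -0.51 with standard errors of 0.53 and 0.64. Of 15 CA2 and CA3 markers, 11 were tested, 2 were higher and 2 were lower. Rgs14, a signaling regulator of CA2, and Necab2, a calcium-binding protein, were higher by 0.50 and 0.46, and Homer3 and Amigo2 were lower by -1.24 and -0.89. None of these 4 calls held without pool 2 or without pool 3, where the adjusted p ran from 0.0502 to 0.146. That of Amigo2 was also lost without pool 1 (adjusted p = 0.179 from edgeR) and without the block (0.0936).

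Among 24 genes that mark other brain regions, 11 were tested. Hap1, of hypothalamus and amygdala, was higher by 0.57, and Tcf7l2, of thalamus, was lower by -3.22 and Six3, of striatum and forebrain, by -4.41. The Six3 call was lost without pool 3 (adjusted p = 0.0622 from edgeR). The lower calls of the list were 6 without pool 1, and its median of -0.81 was 0.27 without pool 3. Pmch, the peptide of lateral hypothalamus, had 4 reads in 1 TRAP library and 2 in 1 input. Whether punches held tissue of neighboring regions was not tested.

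Genes induced by neuronal activity had mostly positive ratios. Of 28 immediate early genes, 27 were tested, 18 were higher and none was lower, with a median log2 ratio of 0.61. The share higher was 66.7%, against 12.9% of all genes and 70.8% of genes used by all cells. Summed over the list, TRAP was 156%, 163% and 138% of input. Junb, an AP-1 subunit, stood at 150.1, 134 and 146 CPM in TRAP and at 56.5, 66.4 and 76.4 CPM in input (log2 ratio 1.12, standard error 0.14, adjusted p = 1.16e-05 from edgeR). Arc, which encodes a capsid-like protein whose mRNA is carried to dendrites, was higher by 0.99, and Egr2, a zinc finger transcription factor, by 1.37. Fos was at 43.0, 32.7 and 35.7 CPM in TRAP and at 20.0, 16.8 and 28.9 CPM in input, a log2 ratio of 0.78 (standard error 0.22, adjusted p = 0.0134 from edgeR). The Fos call was lost without pool 2 (adjusted p = 0.0552) and without pool 3 (0.0512), and that of Egr2 without pool 3 (0.0548).

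Fosb (chr7:19888070-19895394), the gene floxed in the KO mice, was at 45.3, 32.0 and 40.3 CPM in WT TRAP and at 30.2, 22.1 and 24.5 CPM in WT input. The groups did not overlap, and the log2 ratio was 0.61 (standard error 0.20, adjusted p = 0.0268 from edgeR). Without pool 2 the adjusted p was 0.0607 and without pool 3 it was 0.209. Without pool 3, 10 immediate early genes were higher, and without pool 2, 12 were. Gadd45g and Sik1 were the lowest of the list, at -0.37 and -0.23, and were not called.

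Synaptic genes were called in both directions. Of 43 postsynaptic scaffold genes, all tested, 10 were higher and 10 were lower (23.3% each, against 12.9% and 13.7% of all genes), with a median log2 ratio of -0.05. After Kalrn, the highest was Cnksr2 at 0.63. Dlg4, which encodes the main scaffold of the density, was not called, at 991, 961 and 923 CPM in TRAP and 987, 964 and 1099 CPM in input (log2 ratio -0.08, standard error 0.09). Shank1, a scaffold deeper in the density, was lower by -0.49. Ppp1r9a, neurabin, which anchors a phosphatase to actin, was at 195, 148 and 195 CPM in TRAP and 355, 359.7 and 390.4 CPM in input, lower by -1.05 (standard error 0.11, adjusted p = 1.04e-06 from edgeR). Without pool 3, 2 were higher and 2 were lower, and Shank1 had an adjusted p of 0.0959.

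Of 40 genes of presynaptic vesicle release, 16 were higher (40.0%) and 8 were lower (20.0%), with a median of 0.11. Their median level was 339 CPM, among the abundant genes that were often called higher. Doc2b, a calcium sensor of spontaneous release, was highest at 1.19, and Stx1a, a SNARE of the plasma membrane, had 0.80. Pclo, which encodes the very large active zone scaffold piccolo, was at 179.8, 168 and 197 CPM in TRAP and at 745, 670.1 and 679 CPM in input. Its log2 ratio was -1.94 (standard error 0.10, adjusted p = 4.46e-11 from edgeR). Synpr, synaptoporin, a vesicle protein of mossy fibers and interneurons, was lower by -1.17. Without pool 3, 9 were higher and 3 were lower.

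Of 24 glutamate receptor genes tested, 1 was higher and 8 were lower (33.3%, against 13.7% of all genes), with a median of -0.30, or -0.17 relative to genes of similar exon length. Grin1, the obligatory NMDA receptor subunit, was at 263, 207 and 210.2 CPM in TRAP and at 147, 127 and 119.5 CPM in input, higher by 0.78 (standard error 0.11, adjusted p = 3.46e-05 from edgeR). Gria1, an AMPA receptor subunit, was lower by -0.34, a call lost without pool 3 (adjusted p = 0.192). Grin2c, an NMDA subunit that hippocampal astrocytes express, had 11 reads in TRAP and 124 in input. Of 15 GABA receptor genes tested, 1 was higher (6.67%) and 6 were lower (40.0%). Gabbr2, the 1 called higher at 0.28, overlapped between the groups and lost its call when any pool was left out (adjusted p = 0.0926 to 0.242). Without pool 3, 4 glutamate receptor and 2 GABA receptor genes were lower.

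Of 60 potassium channel genes tested, 4 were higher (6.67%, against 12.9% of all genes) and 16 were lower (26.7%, against 13.7%), with a median of -0.30. The lowest 2, Kcnj16 and Kcnj10, encode inward rectifiers of astrocytes, and Kcnj10 was at 5.53, 4.48 and 3.73 CPM in TRAP and 21.5, 28.9 and 33.1 CPM in input. Of 29 sodium, calcium and HCN channel genes, 2 were higher and 3 were lower (10.3%, below the share of all genes), with a median of -0.15, or -0.05 relative to genes of similar exon length. Scn1a, the sodium channel most used by fast-spiking interneurons, was lower by -1.38 and Cacnb1, a calcium channel subunit, was higher by 0.96. Of 22 genes of neurexins, neuroligins and their partners, 3 were higher (13.6%, near the share of all genes) and 6 were lower (27.3%), with a median of -0.30, or -0.15 by the same measure. Clstn1, a calsyntenin of postsynaptic membranes, was higher by 0.74. Without pool 3, 1 potassium channel gene was higher and 8 were lower, 1 sodium, calcium or HCN channel gene was higher and 1 was lower, and 1 gene of the neurexin group was higher and 3 were lower, as many lower as without pool 2.

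Neuropeptides and interferon genes spread widely. Of 23 neuropeptide genes, 16 were tested, 5 were higher and 3 were lower, and without pool 2, 6 were higher and 6 were lower of 17 tested. Grp, gastrin-releasing peptide, was at 31.1, 47.1 and 26.9 CPM in TRAP and at 17.1, 13.9 and 9.50 CPM in input (log2 ratio 1.37, standard error 0.25, adjusted p = 0.000399 from edgeR). Cck, cholecystokinin, which pyramidal cells and a class of interneurons express, was higher by 0.75. Of 19 genes of interferon response and antigen presentation tested, 2 were higher and 4 were lower. Their summed level was lowest in pool 2 in both kinds of library, at 154 CPM in TRAP and 168 CPM in input, against 317 to 367 CPM and 376 to 468 CPM in the other pools. B2m, the light chain of MHC class I, was lower in TRAP by -1.74, and Oasl2, an interferon-induced antiviral gene, was higher by 0.84 with overlapping groups. Without the pool as a block, 1 gene of this list was lower and none was higher, and without pool 3, 2 were lower and none was higher.

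Large chromatin regulators ran from -1.59 to 3.16. Of 40, all tested, 9 were higher (22.5%) and 14 were lower (35.0%), with a median of -0.22. Their median exon length was 10705.5 bases, and in the 10% of genes with the longest exons 31.9% were lower. Without pool 3, 5 were higher and 6 were lower, and without pool 2, 5 were higher and 13 were lower. Mll2, a histone H3 lysine methyltransferase, stood at 186, 196 and 193 CPM in TRAP and at 583, 569 and 576 CPM in input, lower by -1.59 (standard error 0.10, adjusted p = 7.14e-10 from edgeR). The 3 TRAP values and the 3 input values were each within a few percent. Zfhx3, a homeodomain protein, was lower by -1.47. Among 31 autophagy genes tested, Atg7 stood far above the others. The median was 0.12, 4 were higher, a share of 12.9% as over all genes, and none was lower (2 higher without pool 3 and 6 without pool 1), and the next highest, Sqstm1, which encodes the cargo receptor p62, had a log2 ratio of 0.79. Becn1, beclin, and Ulk1, the kinase that starts autophagy, were not called, at -0.24 and 0.13.

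**Figure D3:**
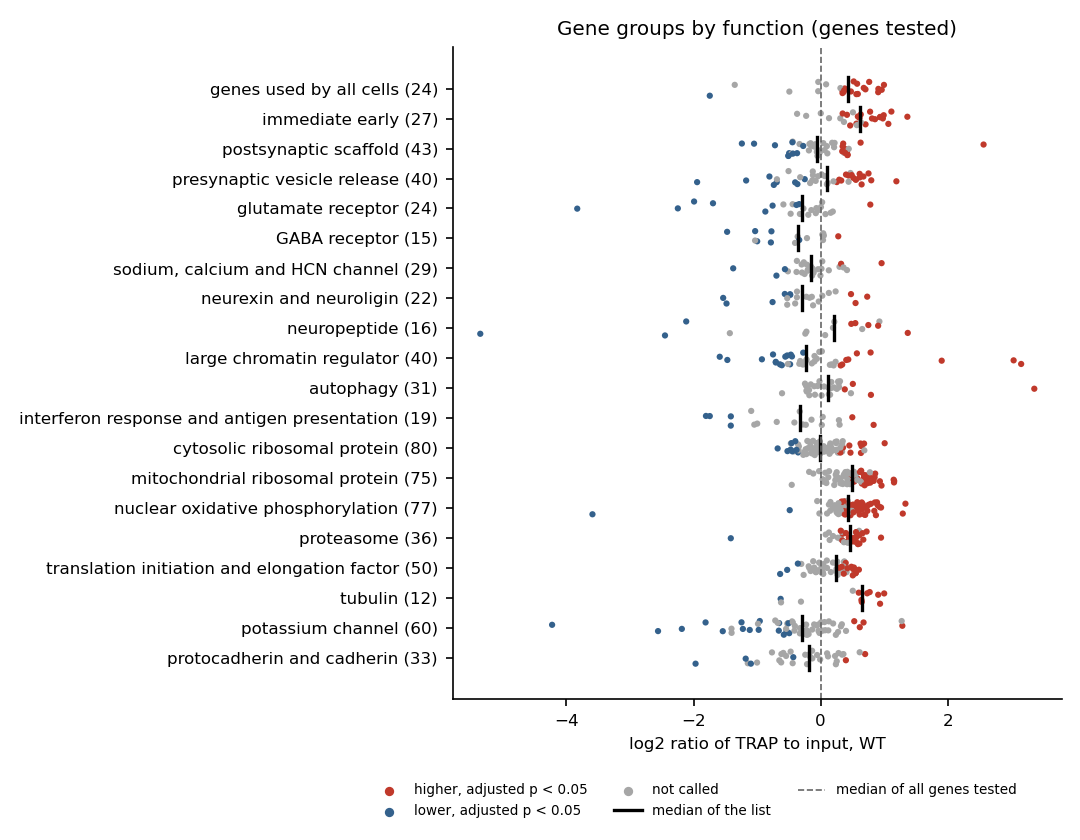
Log2 ratios of TRAP to input in WT for 20 gene groups by function, with the number of genes tested in brackets. Each point is a gene, coloured by its call, black bars are medians of the groups and the dashed line is the median of all genes tested. The medians of mitochondrial ribosomal proteins, the proteasome and tubulins lie to the right, at 0.50, 0.46 and 0.65, while those of potassium channels and glutamate receptors lie to the left, both at -0.30. Kalrn, Atg7, Tnrc18 and Bahcc1 stand apart at the right.

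Many genes of basic cell functions had ratios slightly above 0. Of 24 genes used by all cells, 17 were higher and 1 was lower, with a median log2 ratio of 0.43. Actb, β-actin, was at 2691, 3126 and 2796 CPM in TRAP and at 2276, 2227 and 2101 CPM in input, higher by 0.38 (standard error 0.08, adjusted p = 0.00244 from edgeR), a call lost without pool 3 (adjusted p = 0.131). Gapdh, of glycolysis, was higher by 0.77, although 54.3% of its exon stretches are shared with other places in the genome. Of 12 tubulins tested, 8 were higher and 1 was lower, with a median of 0.65. Tuba1a was at 495, 611 and 708 CPM in TRAP and at 277, 287 and 335 CPM in input, but 83.6% of its stretches are shared. Without pool 3, 8 genes used by all cells were higher.

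Of 77 nuclear genes of oxidative phosphorylation tested, 48 were higher and 2 were lower, with a median of 0.43. Atp5l, an ATP synthase subunit, was at 56.1, 75.4 and 102 CPM in TRAP and at 28.7, 24.3 and 38.4 CPM in input (log2 ratio 1.34). The 2 lower genes were Cox7a2l and Cox6a2, the second of which had 8 reads in TRAP and 91 in input and is a muscle-type subunit also found in interneurons. Both calls were lost without pool 3 (adjusted p = 0.295 and 0.0863), and that of Cox7a2l also without pool 1 (0.0842) and without the block (0.0601). Of 75 mitochondrial ribosomal protein genes tested, 30 were higher and none was lower, with a median of 0.50, and of 36 proteasome genes, 23 were higher and 1 was lower, with a median of 0.46. The lower 1 was Psmb8, a subunit of the immunoproteasome, at -1.41. This call was lost without pool 1, without pool 3 and without the block (adjusted p = 0.0503 from edgeR). Several of these genes have processed copies in the genome. The shared stretches were 92.3% for Atp5l and 96.4% for the proteasome subunit Psmb5. Without pool 3 the counts higher were 21 for oxidative phosphorylation, 7 for mitochondrial ribosomal proteins and 4 for the proteasome, and without pool 2 they were 37, 16 and 12.

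Cytosolic ribosomal proteins were called no more often than all genes. Of 80, all tested, 10 were higher (12.5%, against 12.9% of all genes) and 8 were lower (10.0%, against 13.7%), with a median log2 ratio of -0.01, or -0.19 relative to genes of similar exon length, and the medians within pools 1, 2 and 3 were -0.19, 0.24 and 0.04. Rpl10a, whose protein carries the tag, was at 63.4, 71.8 and 79.7 CPM in TRAP and at 38.0, 43.0 and 53.2 CPM in input, higher by 0.69 (standard error 0.16, adjusted p = 0.0038 from edgeR, and 0.0624 without pool 3). The counts do not tell transcripts of the tagged transgene from those of Rpl10a itself, and 16.1% of its stretches are shared. Of 50 initiation and elongation factors, 12 were higher and 3 were lower, with a median of 0.25. Without pool 3, 2 ribosomal protein genes were higher and none was lower, and without pool 2, 5 were higher and 11 were lower. Without pool 1, 14 were higher and 5 were lower, and without the block 6 were higher and 6 were lower. The translation factors called without pool 3 were 2, both higher.

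Ribosomal protein mRNAs begin with a 5′ terminal oligopyrimidine (TOP) tract, a C followed by pyrimidines, through which their translation is regulated together. In RefSeq promoter sequences of GRCm38.p6, 58 of the 80 genes were matched by symbol, and 24 of them (41.4%) had a C followed by at least 7 C or T on the coding strand within 10 bases of the annotated start, against 9.43% of all 27025 genes in that table. The median log2 ratio was 0.07 in the 24 genes with such a tract, of which 3 were higher and 3 lower, and -0.02 in the 34 without it, of which 5 were higher and 2 lower. The search saw only annotated starts, so the 34 genes may still carry a TOP tract. The 2 groups thus do not compare mRNAs with and without TOP control. The 2 highest and 2 lowest genes with a tract are shown as 30 bases that start 10 bases before the annotated start, with the tract in capitals.
Rpl18 (chr7:45718061-45718090, plus strand): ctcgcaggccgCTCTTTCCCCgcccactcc
Rpl15 (chr14:18270967-18270996, minus strand): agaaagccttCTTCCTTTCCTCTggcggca
Rps12 (chr10:23787190-23787219, minus strand): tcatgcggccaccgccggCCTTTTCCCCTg
Rps27 (chr3:90213629-90213658, minus strand): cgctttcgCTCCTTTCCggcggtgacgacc
Rpl18 and Rpl15, of the large subunit, were higher by 0.64 and 0.63. Rps12 and Rps27, of the small subunit, were lower by -0.46 and -0.52. The stretch marked in Rps12 begins 8 bases past the annotated start, so it may not be a terminal tract. All exon stretches of Rps27 are shared with other places in the genome.

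Ratios fell with the length of the transcript. Exon length was taken as the union of a gene's exons in Gencode vM1. The median log2 ratio was 0.25 in the 10% of genes with the shortest exons, up to 1366 bases, and -0.29 in the longest, from 8454 bases, a difference of -0.54. In the shortest group 16.6% of genes were called higher and 9.57% lower, and in the longest 7.16% and 31.9%. Within pools 1, 2 and 3 the difference was -0.29, -0.66 and -0.51, and by length of the coding sequence it was -0.36. Across 12426 genes Spearman's rho of the ratio was -0.25 with exon length, 0.20 with the GC content of the coding transcript and 0.28 with mean CPM, as a description, since the genes share the same libraries. Genes of low level had low ratios, with a median of -0.54 in the 10% of genes with the lowest mean CPM and 0.26 in the highest. Mean CPM is made of the same values as the ratio, and low genes could pass the filter through the input libraries alone. The part of this in the trend was not tested.

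Exon length, GC content and mean CPM were not separated by a test, and their part in the values of the lists was not tested. Relative to the median of genes of similar exon length, a setting chosen after seeing the data, the median was 0.36 in place of 0.50 for mitochondrial ribosomal proteins, 0.32 in place of 0.46 for the proteasome, 0.25 in place of 0.43 for oxidative phosphorylation and 0.47 in place of 0.65 for tubulins. It changed sign for the large chromatin regulators, from -0.22 to 0.05, and for postsynaptic scaffolds, from -0.05 to 0.13. For astrocyte markers it was -2.58 in place of -2.65, and for microglia markers it was -4.03 in both.

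**Figure D4:**
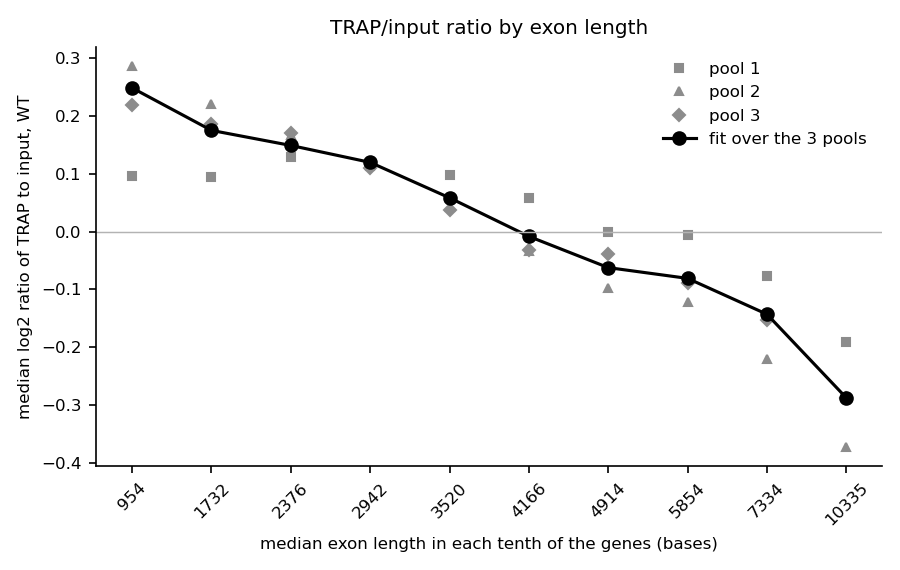
Median log2 ratio of TRAP to input in WT, vertical axis, in 10 groups of genes of equal size by exon length, labelled on the horizontal axis by the median length in bases. Black circles are medians of the fit over the 3 pools, and grey squares, triangles and diamonds are the medians within pools 1, 2 and 3. The fit falls from 0.25 to -0.29, and pool 1 falls least.

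The same comparison in KO served as a second set of pools. In KO, 3977 of 12463 genes (31.9%) were called. Of the 3303 genes called in WT, 3251 were tested in KO, 3232 of them (99.4%) had the same direction, 2599 (79.9%) were also called in that direction, and none was called in the other. Over all 12108 genes tested in both, 81.4% had the same direction, and the WT calls are genes chosen for their ratios. In turn, 67.0% of the KO calls that were tested in WT were called there in the same direction. Across the same 12108 genes, Spearman's rho of the ratios was 0.78, and it was 0.93 over the WT calls. Of the 1036 genes at least 2-fold lower in WT, 989 were tested in KO, 865 were called lower and 822 had a log2 ratio of at most -1. Of the 110 genes at least 2-fold higher, 105 were tested, 62 were called higher and 31 had a log2 ratio of at least 1. The 8 highest named genes had log2 ratios of 1.78 to 2.97 in KO.

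The difference between the WT and KO ratios was tested directly in all 12 libraries. By adjusted p it differed in 1 of 13214 genes (0.00757%), and at an unadjusted p under 0.05 in 389 (2.94%). The gene was Epas1 (chr17:87153247-87232750), which encodes the hypoxia-inducible factor HIF-2α and is expressed by astrocytes and endothelium. Scaled over the 12 libraries, it was at 23.3, 22.9 and 23.7 CPM in WT TRAP and at 116, 133 and 124 CPM in WT input. In KO it was at 6.99, 10.5 and 12.5 CPM in TRAP and at 147, 145 and 130.3 CPM in input. TRAP was thus below input in both genotypes, and each KO TRAP library was below each WT TRAP library. The log2 ratio in KO was below that in WT by 1.39 (standard error 0.24, adjusted p = 0.0499 from edgeR). The call was lost without pool 3 of WT (adjusted p = 0.37), without pool 2 of KO (0.618) and without pool 3 of KO (0.131). The median of the astrocyte markers was -2.65 in WT and -2.96 in KO, and that of the oligodendrocyte precursor markers was -2.46 and -3.08. For endothelial and mural markers it was -1.84 and -1.92. It was higher in KO for markers of oligodendrocytes (-3.49 and -3.41), microglia (-4.03 and -3.96) and GABA interneurons (-1.92 and -1.83). The part of these cell types in the Epas1 difference was not tested.

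**Figure D5:**
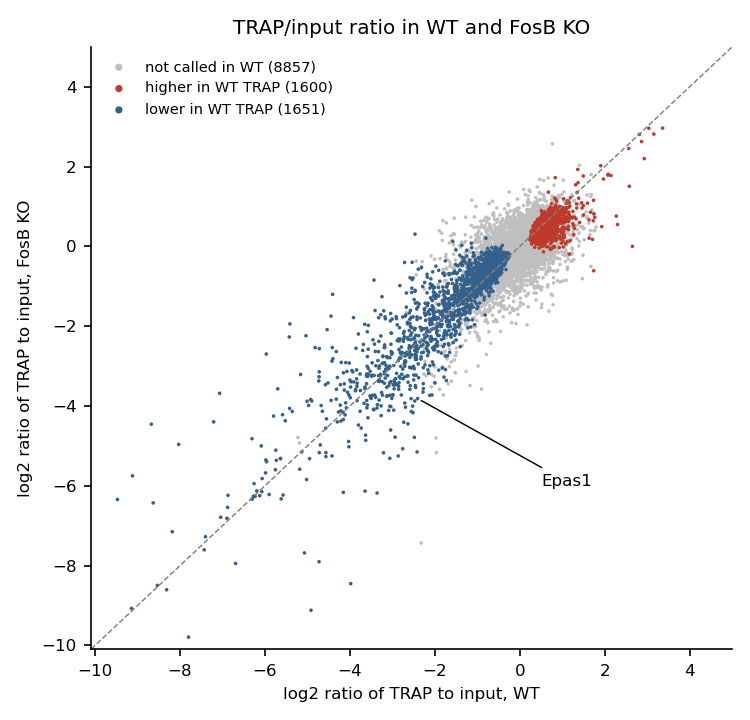
Log2 ratio of TRAP to input in WT, horizontal axis, and in FosB KO, vertical axis, for 12108 genes tested in both. Each point is a gene, red where it was higher and blue where it was lower in WT TRAP, and the dashed line marks equal ratios. Of the WT calls, 99.4% have the same sign in KO, against 81.4% of all genes shown, and Epas1 lies below the line.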

How the data were processed

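RNA from TRAP and input of vHPC pools was sequenced by the authors with a total RNA kit (SMARTer Stranded) from 5 ng. Alignment by the authors was with TopHat (mm9), and HTSeq-count with the Gencode vM1 annotation gave reads per gene, without reads that aligned more than once. They deposited raw counts per gene, 1 file per library. Tool versions and the strand setting are not given in the sources used here. Of the unique reads, 20.6% to 25.1% fell on no gene and were left out here.

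Counts of the 6 WT libraries were tested with edgeR 4.0.16 in R 4.3.3, with its filter on low counts and TMM scaling. The fit used robust dispersion, the quasi-likelihood test, the pool as a block and Benjamini-Hochberg adjustment. Genes kept had 15 counts in total. In as many libraries as a group holds, they reached the CPM of 10 counts in a library of median depth. A gene could thus pass through the TRAP or the input libraries alone, and 15 genes tested had no TRAP read. CPM are TMM-scaled, and log2 ratios are those of the fit. The WT and KO ratios were compared in all 12 libraries with pools as blocks. Separate pools of mice are the replicates. TRAP and input with the same number come from the same mice, and their deviations from the group means correlated at 0.08, 0.11 and 0.05. The WT fit was tested on simulated data.

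Named genes are Kalrn, Actb, Fosb and Rpl10a, the 8 highest and 8 lowest ratios among genes that were called, did not overlap and had a mean of at least 10 CPM, without gene models and mitochondrial genes, and in each list the defining markers and the 2 highest and 2 lowest members. The comparison, lists and members were chosen with earlier results of these data known. Shared stretches were found with minimap2 2.31. A few named genes are not reported here.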

Additional observations from a re-analysis of the deposited data

Results flagged for a closer look

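Epas1 stood out because its ratio of TRAP to input differed between WT and KO by a test of the difference itself, with a log2 difference of 1.39. The groups did not overlap within TRAP, at 22.9 to 23.7 CPM in WT and 6.99 to 12.5 CPM in KO, and the adjusted p of 0.0499 from edgeR lies at the threshold. It was the 1 gene called of 13214 tested. The Epas1 call was lost with total counts as scaling, with a mean of at least 10 counts and without robust dispersion, and also without pool 3 of WT, without pool 2 of KO and without pool 3 of KO, where the log2 difference was 1.38, 1.18 and 1.42 and the adjusted p was 0.37, 0.618 and 0.131. By p the next gene was Npy, a peptide of interneurons, with a log2 difference of 1.24 and an adjusted p of 0.851 from edgeR. Bcan, an astrocyte and precursor proteoglycan, came after Npy and had a log2 difference of 1.15 with an adjusted p of 1. Npy and Bcan were chosen here after their values were seen.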

How the results depend on the processing

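The count of 3303 genes called in WT ran from 2531 to 4063 over the alternatives that kept all 3 pools, with 3096 without the pool as a block (no replicate block), 2531 with DESeq2 1.42.0 and 4063 in a fit of all 12 libraries. Leaving out 1 pool gave 1165 to 3622, and 1165 without pool 3 is the 1 count beyond 1.5 times. No gene shared with the calls of an alternative changed direction. The count of genes that differ between WT and KO was 1, was 0 with total counts, with a mean of at least 10 counts and without robust dispersion, was 2 with no filter, and ran from 0 to 2 when 1 pool was left out. The difference by length was -0.29 in pool 1 alone. Among the 204 named genes, 14 calls were lost without the block, 14 with DESeq2, 13 without pool 1, 17 without pool 2 and 46 without pool 3. Of 38 list medians, 12 moved by more than the spread between pools when set against genes of the same length, an alternative added after the data were seen. With 3 pools and 3 counts at 0.536 to 0.870 CPM, small ratios of low genes were not detectable at this depth.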
